A study of Mus musculus with 30 samples.

Results

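The microRNAs miR-378 and miR-193 were followed across all 8 groups of a mouse miRNA profiling study, as the rows mmu-miR-378 and mmu-miR-193 of the deposited table. They are 2 of its 566 mouse miRNA probes and were taken because both are named in mitochondrial and brown fat programmes. The study measured 30 samples by hybridisation of total RNA to probes carrying a fluorescent barcode. Male C57BL6 mice, an inbred laboratory strain, were kept on chow (NCD) or on food with 60% fat (HFD) between 4 and 20 weeks of age. The white fat along the gut, mesenteric adipose tissue (MAT), gave 5 samples per diet, and abdominal aorta (AA) gave 3 per diet. The cultured groups came from stromal vascular pre-adipocytes of mesenteric fat of NCD-fed mice, turned into adipocytes in the dish (MAT-Ad) and held for 24 h with PBS or with 1 µg/ml lipopolysaccharide (LPS), an endotoxin of Gram-negative bacteria that activates Toll-like receptor signalling. These cultures gave 4 samples per treatment, and exosomes, small vesicles collected from their medium (MAT-Ad-EX), gave 3 per treatment. RNA of exosomes was extracted with another kit than RNA of tissue and cells.

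miRNAs are short RNAs that guide Argonaute proteins to messenger RNAs, which they recognise mainly through the seed at their 5′ end. miR-378 is made from an intron of Ppargc1b, the gene of the metabolic coactivator PGC-1beta, and in mice it has been tied to mitochondrial energy use in liver and muscle and to brown fat mass. miR-193b is made beside miR-365 in a cluster enriched in brown fat and is reported to help brown adipocytes form, and miR-193a is its paralogue beside a further copy of miR-365. White fat of the gut mesentery is not a brown fat depot, and miR-378 is also abundant in striated muscle.

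The table gives the probe name miR-193 without an arm or a locus, next to a separate probe for miR-193b. RefSeq lists the older name mmu-mir-193 as a synonym of Mir193a, so the probe is read here as miR-193a, and its arm is not stated. The mature sequences below, from RefSeq on GRCm38.p6, are shown because the family shares its seed and because the miR-193a and miR-193b probes differed in where they gave signal. Capitals mark the seed, bases 2 to 8 from the 5′ end.

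miR-193a-3p: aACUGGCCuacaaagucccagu
miR-193b-3p: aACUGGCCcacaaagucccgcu
miR-193a-5p: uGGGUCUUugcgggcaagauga
miR-365-3p: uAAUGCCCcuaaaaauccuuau

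Counted from the 5′ end, miR-193b-3p differs from miR-193a-3p by U9C, A20G and G21C, with the seed and 19 of the 22 bases the same. Among 1679 mature mouse miRNA names in the RefSeq table, these 2 carry this seed. miR-193a-3p lies at chr11:79712009-79712030 and miR-193b-3p at chr16:13449570-13449591, each on the plus strand. Mir365-2 begins 14365 bases after Mir193a, and Mir365-1 begins 4238 bases after Mir193b. The chromosome 16 pair lies within the spans of the long noncoding RNA genes Gm32817 and Gm53058, while no other annotated gene spans Mir193a. Because miR-365-3p has the same letters at both loci, the miR-365 probe cannot tell them apart. miR-378 is named only.

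Signals carried no depth that equalised the groups. Summed mouse miRNA signal ran from 270569 to 351783 in MAT on NCD and from 311130 to 496704 in MAT on HFD. It ran from 174770 to 287152 in AA and from 70149 to 142968 in MAT-Ad, and from only 1796 to 33349 in exosomes. A value of 29.8 served as detection limit, set 2 SD over the average of 240 negative control readings. Each member is therefore given both as deposited signal and as percent of the summed mouse miRNA signal of its sample, a share that is free of any scale factor. By presence, the adipocyte and smooth muscle lists did not set MAT, AA and MAT-Ad apart. All 5 adipocyte miRNAs and both smooth muscle miRNAs were over the limit in each, and miR-143 is in both lists. The endothelial, red cell and striated muscle lists had members over the limit in MAT and AA and none in MAT-Ad. Smooth muscle miRNAs held 27.5% to 38.2% of the signal in AA, 4.67% to 23.9% in MAT and 2.02% to 4.11% in MAT-Ad. The adipocyte list held 5.42% to 7.86% in AA, 3.41% to 6.26% in MAT and 2.41% to 3.19% in MAT-Ad. Exosomes with PBS replicate 1 stood apart, with a ligation control (LIG_POS_A) of 126 against 2832 to 23141 in the other exosome samples, and AA on NCD replicate 1 had 50714 against 4295 to 8159 in the other aortas. The labels do not say which samples came from separate animals or cultures, so each p-value reflects spread among samples that may be technical. In bulk samples fewer cells of a type and less RNA per cell cannot be told apart.

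miR-378 was present in fat, aorta, cells and exosomes, whereas miR-193 was over the detection limit in mesenteric fat alone. miR-378 was highest in MAT on NCD, with signals of 1180, 1381, 1217, 1394 and 1661 (1366 ± 190, SD, n = 5). On HFD the MAT signals of miR-378 were 699, 1424, 1382, 1312 and 991 (1162 ± 310, n = 5). These ranges overlapped, and both lay above every sample of the other 6 groups.

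In aorta miR-378 read 283, 141 and 191 on NCD (205 ± 72.3, n = 3) and 385, 355 and 438 on HFD (393 ± 41.8, n = 3). Cultured adipocytes had 28.7, 37.7, 36.8 and 54.8 with PBS (39.5 ± 11, n = 4), of which 3 of 4 were over the limit. With LPS the cells had 31.7, 45.2, 80.0 and 96.4 (63.3 ± 30.0, n = 4). All 4 LPS samples were over the limit, and the range overlapped that of PBS. Exosomes had 1.08, 143 and 92.8 with PBS (79.0 ± 72.0, n = 3) and 231, 429 and 228 with LPS (296 ± 115, n = 3). The value of 1.08 is the floor of the sample whose ligation control was low, and the other 2 PBS exosome samples lay above every PBS culture.

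Ordered by mean signal of miR-378, the groups ran from MAT on NCD through MAT on HFD, AA on HFD, exosomes with LPS, AA on NCD, exosomes with PBS and MAT-Ad with LPS to MAT-Ad with PBS. Between MAT on HFD and AA on HFD the signals stood apart, with a ratio of the means of 2.96. All other neighbours in this order overlapped in range. The fall from fat to cultured cells covered a ratio of 34.4 on the log2(signal + 1) scale between MAT on NCD and MAT-Ad with PBS.

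miR-193 signals in MAT on NCD were 125, 225, 193, 234 and 193 (194 ± 42.9, n = 5). On HFD they were 24.9, 151, 96.6, 161 and 116 (110 ± 54.2, n = 5), with replicate 1 under the limit. The diets overlapped, with 3 of the HFD samples below the lowest NCD sample. In AA the signals were 2.70, 1.00 and 1.00 on NCD and 1.49, 1.00 and 1.64 on HFD, at or close to the floor of each sample. MAT-Ad with PBS gave 1.04, 1.26, 3.45 and 1.09, and MAT-Ad with LPS gave 11.3, 19.2, 7.92 and 16.7. Exosomes gave 1.00 to 1.88. All samples outside MAT lay below the limit, so no order is given among their groups.

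**Figure D1:**
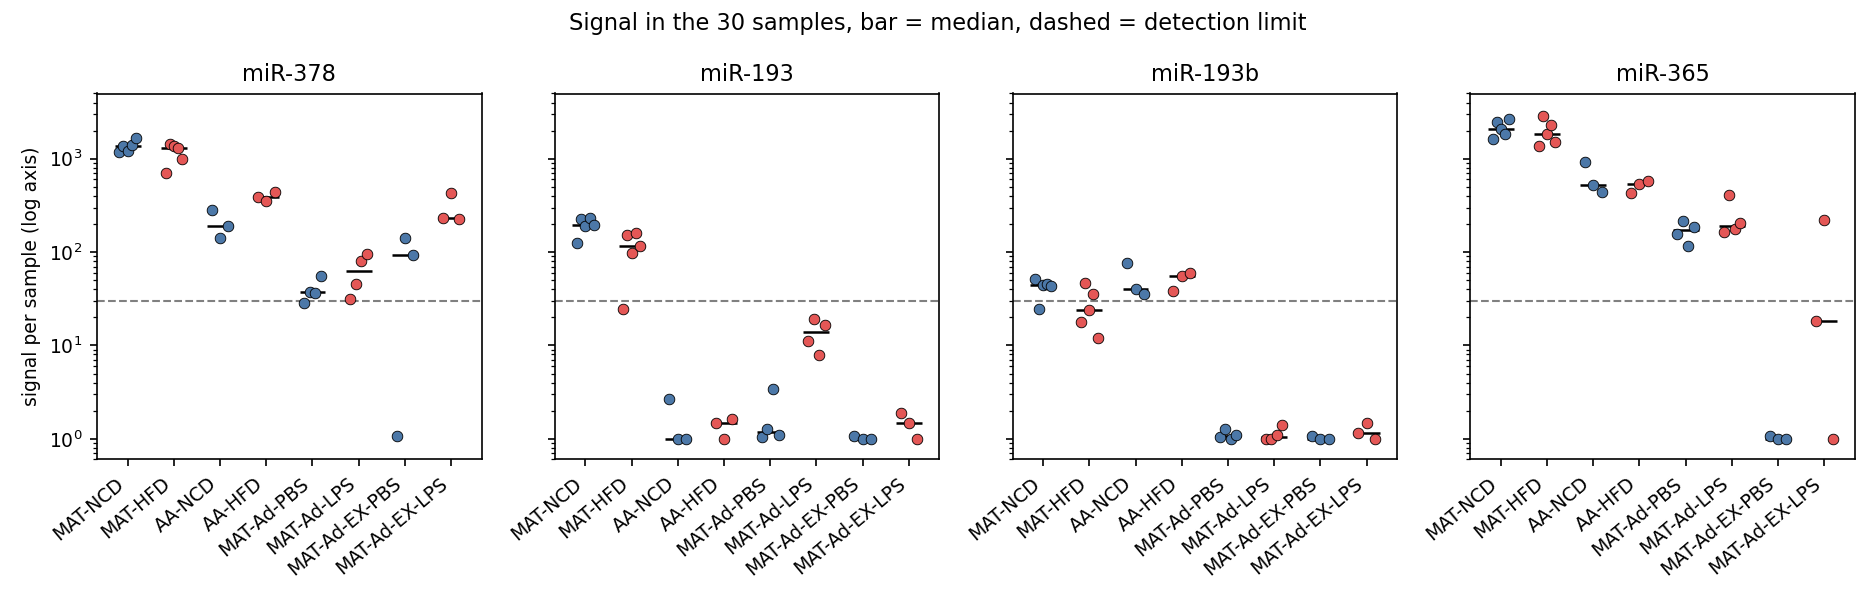
Signal per sample (log axis) of miR-378, miR-193, miR-193b and miR-365 in the 8 groups. Points are samples (blue for NCD or PBS, red for HFD or LPS), bars are group medians and the dashed line is the detection limit of 29.8. miR-378 has samples over the limit in every group, while miR-193 does only in MAT.

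The neighbouring probes had patterns of their own. miR-193b, with the same seed, was over the limit in all 6 aorta samples, at 50.8 ± 22.8 on NCD and 51.4 ± 11.2 on HFD (n = 3 each). In MAT it read 41.9 ± 9.97 on NCD, with 4 of 5 over the limit, and 27.3 ± 14.0 on HFD, with 2 of 5. In cells and exosomes it lay at or near the floor. miR-365 was measured in tissues and cells, at 2140 ± 439 in MAT on NCD, 629 ± 263 in AA on NCD and 168 ± 42.4 in MAT-Ad with PBS. In PBS exosomes miR-365 lay at the floor in all 3 samples. So of the 3 probes of the miR-193 and miR-365 loci, miR-193 alone was undetected in aorta.

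The first comparison asked what a high fat diet did in mesenteric fat. As signal, miR-378 differed by -0.27 ± 0.24 (log2 HFD minus NCD ± SE), a fold of 0.828, and did not pass (limma adjusted p = 0.44). miR-193 differed by -1.02 ± 0.45, a fold of 0.493, and did not pass after adjustment either (limma adjusted p = 0.16). Of the 157 miRNAs tested here 24 passed, which is 15.3%, with 14.6% higher and 0.637% lower, and the median difference over all tested was 0.31. miR-193b differed by -0.71 ± 0.35 (adjusted p = 0.19) and miR-365 by -0.14 ± 0.25 (adjusted p = 0.72).

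As a share of the miRNA signal, both members were lower on HFD in every sample. The summed signal that divides each share ran from 270569 to 351783 on NCD and from 311130 to 496704 on HFD. A share can therefore be lower without an equal loss of signal. miR-378 made up 0.394%, 0.393%, 0.450%, 0.478% and 0.474% of the signal on NCD and 0.225%, 0.287%, 0.352%, 0.315% and 0.289% on HFD. The means were 0.438% ± 0.0419 and 0.293% ± 0.0466 (n = 5 each), and all 5 HFD samples lay below all 5 NCD samples. The exact two-sided permutation test gave p = 0.00794, the smallest that 5 against 5 allows, and 0.0238 after Benjamini-Hochberg adjustment over 6 tests.

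miR-193 took 0.0417%, 0.0641%, 0.0712%, 0.0802% and 0.0550% of the signal on NCD and 0.00799%, 0.0303%, 0.0246%, 0.0387% and 0.0339% on HFD. The mean share fell from 0.0624% ± 0.0149 to 0.0271% ± 0.0119 with no overlap (exact permutation p = 0.00794, adjusted 0.0238, n = 5 each). Such a complete fall in share was found for 8 of 157 miRNAs, or 5.1%, and a complete rise for 11, or 7.01%. Leaving out the 5 most abundant miRNAs of each sample from the total kept both falls complete.

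**Figure D2:**
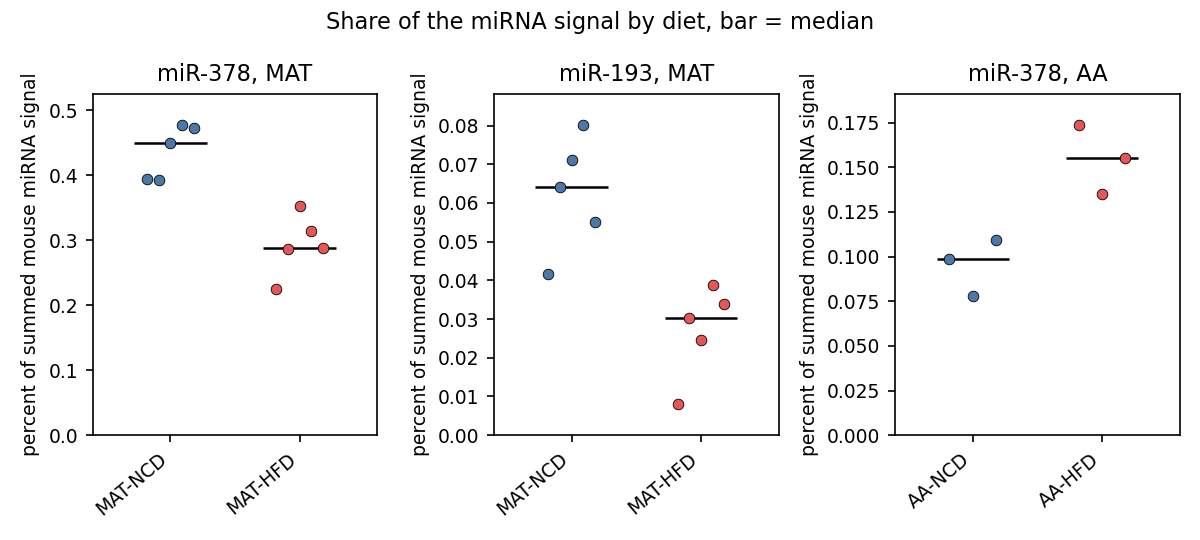
Percent of the summed mouse miRNA signal of miR-378 in MAT, miR-193 in MAT and miR-378 in AA, by diet, with an axis from 0 in each panel. Points are samples and bars are medians. In MAT all 5 HFD points lie below all NCD points for both miRNAs, and in AA all 3 HFD points of miR-378 lie above the NCD points.

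The drop of miR-193 was not shown to be steeper than that of miR-378. Within each sample the log2 signal of miR-378 minus that of miR-193 was 2.83 ± 0.31 on NCD and 3.58 ± 0.73 on HFD, a difference of 0.75 (exact permutation p = 0.0635, adjusted 0.127, n = 5 each). MAT on HFD replicate 1 had the lowest signal of both miRNAs, 699 and 24.9, and also the lowest miR-1 of its group (112) and the lowest ligation control in MAT (15316). Without it the differences in signal were -0.10 for miR-378 and -0.56 for miR-193.

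Scaling bore on these calls. With top-100 scaling the difference of miR-378 in MAT was -0.59 (limma adjusted p = 0.0446). For miR-193 it was -1.24 with median centring (adjusted p = 0.0387), -1.37 with quantile normalization (0.00855) and -1.34 with top-100 scaling (0.0381). All 3 settings kept the direction of the deposited signal.

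Markers of other cells were read beside these values. Of 7 striated muscle miRNAs 2 were over the limit in MAT, miR-1 and miR-133a, with summed list signals of 422 to 1414 on NCD and 182 to 1778 on HFD. miR-133b, miR-206, miR-208a, miR-208b and miR-499 stayed below it. The leukocyte list, with all 4 miRNAs over the limit, summed to 4549 to 25461 on NCD and 5803 to 26549 on HFD, and 1 of 4 passed as higher. This was miR-223, which went from 1196 to 1595 on NCD to 1946 to 2921 on HFD with no overlap (0.75 ± 0.19, limma adjusted p = 0.0259). The 4 leukocyte miRNAs together had a median difference of -0.38, against 0.31 over all 157 tested. The red cell list summed to between 2864 and 8144 on NCD and reached 60039 in HFD replicate 2. Both endothelial miRNAs were over the limit, with sums of 16007 to 22613 on NCD and 22851 to 34485 on HFD. Of these, miR-126-3p passed as higher, at 15219 to 21912 on NCD and 22265 to 33686 on HFD (0.67 ± 0.20, limma adjusted p = 0.0402). The smooth muscle list summed to 24939 to 83721 on NCD and 16036 to 92217 on HFD, with none passing. Of the 5 epithelial miRNAs only miR-200b was over the limit, at 195 to 320 on NCD and 78.2 to 183 on HFD, and it did not pass. The 5 adipocyte miRNAs summed to 14926 to 21941 and 10617 to 28685. The part of these cells in the lower shares of miR-378 and miR-193 was not tested.

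Across the 10 MAT samples the signals of miR-378 and miR-193 correlated, with Pearson's r = 0.850 (permutation p = 0.0119, adjusted 0.0159 over 4 relations) and Spearman's rho = 0.576 (permutation p = 0.087). Without the 2 samples farthest from the median of miR-378 the r was 0.249, so the relation of the signals rests on those samples. As deviations from the group means r was 0.823 (permutation p = 0.00816, adjusted 0.0159) and 0.397 without them. The shares correlated at r = 0.880 and rho = 0.867 (permutation p = 0.00054 and 0.00195, adjusted 0.00216 for r), and at 0.763 without those 2 samples. Within the diets, as deviations, the shares gave r = 0.716 (permutation p = 0.0234, adjusted 0.0234) and rho = 0.358 (permutation p = 0.312). Shares have a common divisor, and the diets differ in both, so the pooled r includes the diet difference.

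**Figure D3:**
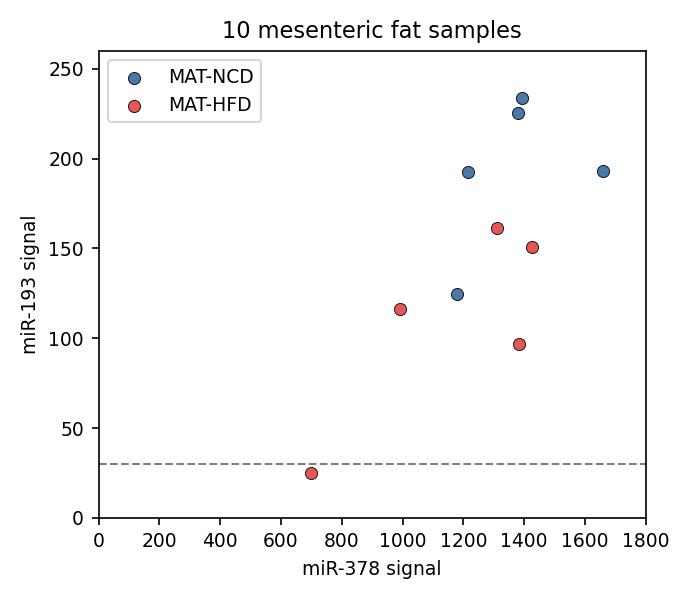
Signal of miR-193 against signal of miR-378 in the 10 mesenteric fat samples, linear axes from 0, blue for NCD and red for HFD. The dashed line is the detection limit for miR-193. HFD replicate 1, at 699 and 24.9, is the point nearest the origin.

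The list of 36 other miRNAs tied to brown fat or mitochondria gives the setting in MAT. Of these, 22 were tested, 4 rose on HFD and 1 fell, with a median of 0.12 against 0.31 over all 157. The 4 are 18.2% of the list members tested, near the 14.6% of all miRNAs called higher. The 1 that fell is 4.55% of them, against 0.637% of all called lower. miR-27a, which acts on adipogenic regulators, went from 2973 ± 435 to 5402 ± 1039 (0.85 ± 0.21, limma adjusted p = 0.0222). miR-199a-3p went from 2422 ± 296 to 4704 ± 866 (0.95 ± 0.20, adjusted p = 0.0107). miR-34a, known from the p53 response, went from 78.7 ± 45.7 to 168 ± 8.84 (1.27 ± 0.34, adjusted p = 0.0294), and miR-149 from 20.4 ± 12.6 to 56.6 ± 19.6 (1.53 ± 0.38, adjusted p = 0.0225).

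The single list member that fell was miR-210, a hypoxia miRNA that acts on mitochondrial iron-sulfur assembly, from 62.4 ± 11.4 to 30.4 ± 13.3 (-1.10 ± 0.30, adjusted p = 0.0294). By reported role, none of 7 tested members that favour brown or beige fat passed, with a median of -0.30. Of 9 that restrain it 4 were called higher, 44.4% against 14.6% of all 157, with a median of 0.77 against 0.31. The list was chosen with earlier results of these data known, and whether these subsets differ was not tested. These counts were not stable. Without MAT on NCD replicate 1, 3 or 4, or HFD replicate 2 or 4, only 1 list member was called higher, and without HFD replicate 3 it was 2. Without any NCD replicate, or HFD replicate 2 or 5, none was called lower.

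**Figure D4:**
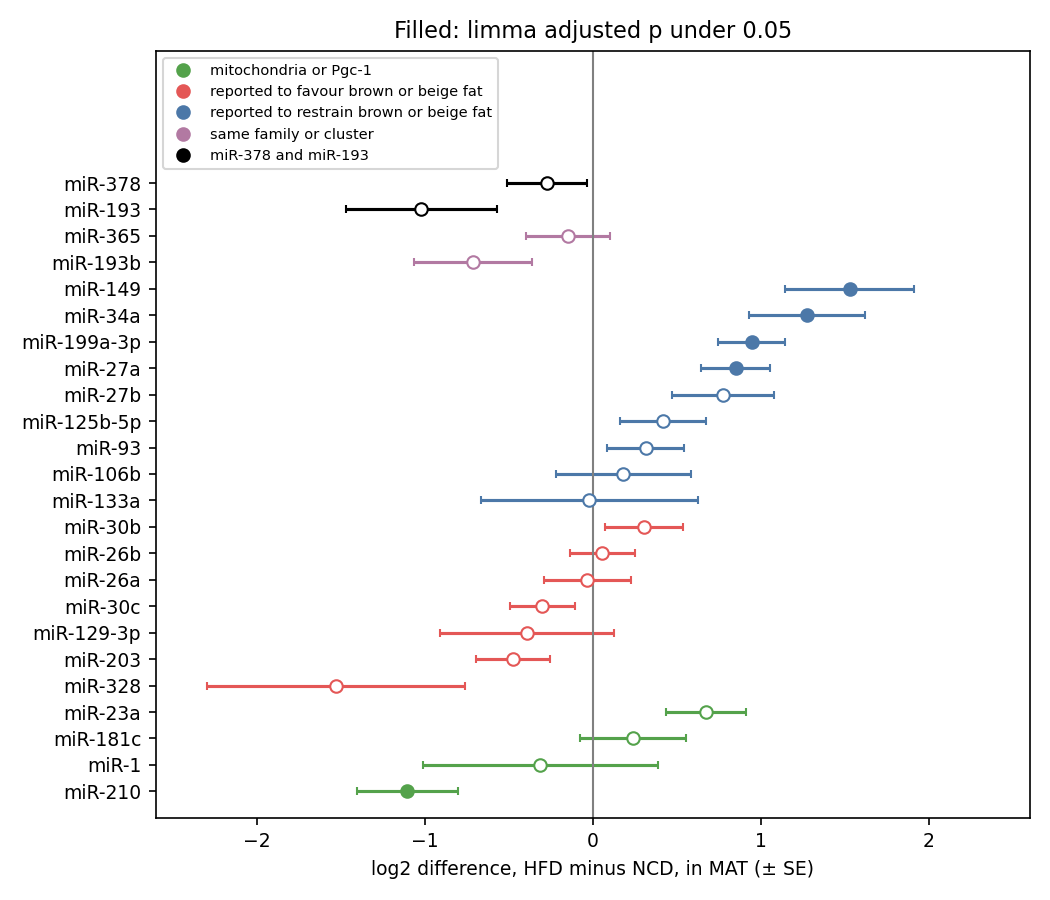
Log2 difference, HFD minus NCD, in MAT for miR-378, miR-193 and the 22 tested members of the list, with bars for the standard error. Filled points have a limma adjusted p under 0.05. The 4 filled points above 0 are miR-149, miR-34a, miR-199a-3p and miR-27a, the filled point below 0 is miR-210, and miR-378 and miR-193 are open.

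In aorta the diet comparison ran the other way for miR-378. The signals given above did not overlap, and HFD was 0.99 ± 0.29 higher on the log2 scale, a fold of 1.98 with a 95% interval of 0.27 to 1.70 in log2 units (n = 3 each). It did not pass after adjustment (limma adjusted p = 0.40), nor without NCD replicate 1, where the difference was 1.25 (adjusted p = 0.0759). None of the 99 miRNAs tested in AA passed with limma, 0.0%, and 11 had an unadjusted p under 0.05, while 25.3% lay higher on HFD with no overlap. miR-365 differed by -0.23 ± 0.33 (adjusted p = 0.88) and miR-193b by 0.08 ± 0.35 (adjusted p = 0.96), and miR-193 was below the limit on both diets.

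The share of miR-378 in AA was 0.0986%, 0.0779% and 0.109% on NCD and 0.174%, 0.135% and 0.155% on HFD (0.0952% ± 0.0159 and 0.155% ± 0.0193, n = 3 each). All 3 HFD samples lay above all 3 NCD samples, with an exact permutation p of 0.1, the smallest that 3 against 3 allows, and 0.15 after adjustment. A complete rise in share was seen for 3 of 99 miRNAs, or 3.03%. The striated muscle list summed to 662 to 802 on NCD and 782 to 1231 on HFD, with miR-1 and miR-133a over the limit in all 6 samples and miR-206 in 1 HFD sample. The 4 other muscle miRNAs were below the limit. Smooth muscle miRNAs held 33.2% to 38.2% of the signal on NCD and 27.5% to 31.8% on HFD. The part of muscle in the aortic values of miR-378 was not tested.

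The difference between the tissues in the diet effect on miR-378 was 1.26 ± 0.39 (log2, AA minus MAT) and did not pass (limma adjusted p = 0.21). In this comparison 3 of 175 miRNAs passed, 1.71%, all 3 lower. Median centring gave 1.46 (adjusted p = 0.0200) and top-100 scaling 1.28 (adjusted p = 0.0288). Without AA on NCD replicate 1, whose ligation control was high, it was 1.52 (adjusted p = 0.0426).

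On shares, miR-378 changed by -0.59 in MAT and 0.71 in AA on the log2 scale. These are 1.5-fold lower and 1.63-fold higher shares on HFD. Their difference was 1.29, which was noticed in the values and was not tested on shares. A complete fall in MAT together with a complete rise in AA was found for 1 of 175 miRNAs, or 0.571%. This is miR-378 itself, and the reverse was found for none. Only 99 of these miRNAs were over the limit in enough aorta samples to be tested in AA. The 0.571% therefore takes in miRNAs too low in aorta for a rise to be read. miR-193 could not be compared in this way, because in AA it was not measured above the limit.

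Between the tissues, miR-193 separated fat from aorta under every scaling. AA was at least 6.19-fold lower on NCD and at least 3.05-fold lower on HFD, with the aorta set to the limit. These bounds were not tested, and the fit on deposited signal passed on both diets (limma adjusted p = 3.7e-08 and 1.5e-07). Of the 175 miRNAs tested 73.1% passed on NCD, 71.4% lower in AA, and 78.9% passed on HFD, 76.0% lower, with medians of -2.10 and -2.02. Signals lower in AA with no overlap were found for 65.7% on NCD and 67.4% on HFD. miR-193 stayed lower in AA on both diets with top-100 scaling (limma adjusted p = 2.2e-07 and 2.7e-06), median centring (2.8e-07 and 5.1e-06) and quantile normalization (4.4e-05 and 0.0024).

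miR-378 was 6.86-fold lower in AA on NCD (-2.78 ± 0.28, limma adjusted p = 4.4e-07) and lower on HFD as deposited (-1.52 ± 0.28, 2.87-fold, adjusted p = 0.00016), but on HFD the direction turned under each other scaling. With the tissues scaled alike, AA on HFD lay 0.51 above MAT by median centring (adjusted p = 0.0684), 0.60 by quantile normalization (0.0635) and 0.55 by top-100 scaling (0.0333). On NCD the same settings left AA lower, by -0.95, -0.66 and -0.74 (adjusted p = 0.0022, 0.0479 and 0.0067). The share was lower in AA on both diets, with no overlap, as for 56.6% of miRNAs on NCD and 56.0% on HFD.

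For the relatives, miR-365 was lower in AA as deposited by -1.82 ± 0.30 on NCD and -1.90 ± 0.30 on HFD (limma adjusted p = 7.2e-05 and 4.3e-05), but with median centring these differences were 0.01 and 0.12 (adjusted p = 0.98 and 0.66). miR-193b did not pass on NCD as deposited (0.23 ± 0.40, limma adjusted p = 0.63) and was higher in AA on HFD (1.02 ± 0.40, adjusted p = 0.0312). With median centring it was higher in AA on both diets, by 2.05 ± 0.36 and 3.04 ± 0.36 (limma adjusted p = 0.0002 and 5.1e-06). So miR-193 and miR-193b, which share the seed, differed in direction between aorta and fat on HFD in the deposited signal and on both diets after centring. Sample kind and the letter of the sample description change together, so tissue and any handling that the letter marks cannot be told apart.

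**Figure D5:**
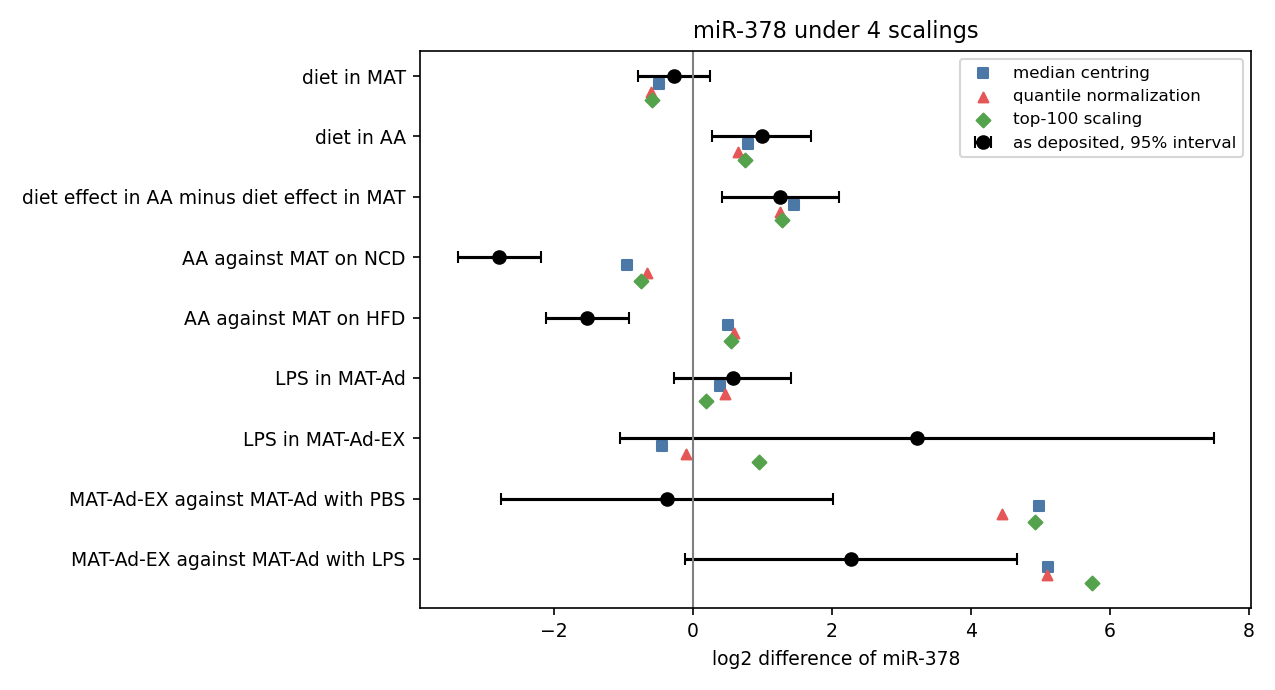
Log2 difference of miR-378 in 9 comparisons as deposited (black, with 95% interval) and after median centring, quantile normalization and top-100 scaling (coloured). The diet comparisons keep their sides of 0 under all scalings, while AA against MAT on HFD, LPS in exosomes and exosomes against cells with PBS have points on both sides.

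Cultured adipocytes held little of either miRNA beside whole mesenteric fat. MAT on NCD had 34.4-fold more miR-378 than MAT-Ad with PBS (5.11 ± 0.22, limma adjusted p = 1.4e-08). For miR-193 it had at least 6.19-fold more (limma adjusted p = 2.1e-08 in the fit on deposited signal). With median centring the difference of miR-378 was 3.03 ± 0.18, and miR-193 stayed higher in MAT (limma adjusted p = 1.6e-06). In this comparison 80.8% of 151 miRNAs passed, 76.8% of all being higher in tissue, 74.2% were higher with no overlap, and the median difference was 2.77. miR-365 was 12.8-fold higher in MAT (limma adjusted p = 2.1e-07, but 0.18 with top-100 scaling). miR-193b was at least 1.36-fold higher (limma adjusted p = 3.9e-08 on deposited signal, but 0.60 with quantile normalization). As a share, miR-378 was 0.438% ± 0.0419 of the signal in fat and 0.0446% ± 0.00985 in the cells. Markers of endothelium and red cells, over the limit in fat, were all below it in MAT-Ad with PBS, as were all 7 of striated muscle. Others stayed over it in all 4 of those cultures, namely miR-143 (516 to 884) and miR-145 (1482 to 2624) of smooth muscle, miR-142-5p (227 to 252) of leukocytes and miR-200b (131 to 212) of epithelium. However, miR-142-5p and miR-200b were over the limit in every sample of the series, exosomes included. miR-142-3p, another leukocyte marker, read 1.00 to 1.56 in those cultures. The part of other cell types in the difference between fat and cultured cells was not tested.

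The difference of miR-378 between LPS and PBS cultures did not pass. It was 0.58 ± 0.38 with a 95% interval of -0.27 to 1.42 (limma adjusted p = 0.54). Its share was 0.0446% ± 0.00985 with PBS and 0.0597% ± 0.0297 with LPS (exact permutation p = 0.429, adjusted 0.514, n = 4 each). Of 98 miRNAs 2 passed, or 2.04%, while 85.7% had a higher mean with LPS and the median difference was 0.29. Same-numbered cultures deviated together, and miR-378 signal was higher with LPS in 4 of 4 such pairs, by 0.14, 0.26, 1.1 and 0.80 on the log2 scale, and its share in 3 of 4. With the replicate number as a block 8 passed, miR-378 not among them (0.58 ± 0.29, adjusted p = 0.19). miR-365 differed by 0.44 ± 0.34 (adjusted p = 0.64).

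miR-193 read 7.92 to 19.2 in the 4 LPS cultures and 1.04 to 3.45 in the PBS cultures. Every one of these values is below the limit of 29.8, and the highest negative control in the LPS cultures read 20.3 to 38.4. Over all 566 probes 7, or 1.24%, were higher with LPS with no overlap. No fold or test is given for miR-193, since both groups are below the limit.

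In exosomes miR-378 was over the limit in 5 of 6 samples. Its LPS samples lay above its PBS samples, at 228 to 429 against 1.08 to 143, but the difference of 3.22 ± 1.71 did not pass (limma adjusted p = 0.18, 95% interval -1.04 to 7.49). Of the 26 miRNAs tested 8 passed, or 30.8%, and 61.5% were higher with LPS with no overlap. All 26, or 100%, had a difference above 0, and their median of 3.33 was close to the value of miR-378. The share of miR-378 went the other way, at 2.78% ± 2.51 with PBS and 2.30% ± 1.46 with LPS, with wide overlap (exact permutation p = 0.9, adjusted 0.9, n = 3 each). Without PBS replicate 1, whose ligation control was low, the signal differed by 1.29 ± 0.67 (limma adjusted p = 0.20) and the share by -1.84 percentage points (exact permutation p = 0.3). The direction of the change in signal also turned under median centring (-0.45) and quantile normalization (-0.10).

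Set against LPS cells, LPS exosomes gave more miR-378 signal in every sample. RNA of exosomes was extracted with another kit, so sample kind and kit cannot be told apart, with LPS or with PBS. The cells read 31.7 to 96.4 and the exosomes 228 to 429, a difference of 2.27 ± 1.11 or 4.83-fold (limma adjusted p = 0.0785). A total of 72.8% of 114 miRNAs passed here, 70.2% of all being lower in exosomes, and 2.63% passed as higher. No overlap with exosomes above was found for 2 of 114, or 1.75%, which are miR-378 and miR-2183. Of the share, exosomes with LPS had 1.29% to 3.97% against 0.0316% to 0.0960% in the cells, and 16.7% of miRNAs had such a complete rise in share.

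With PBS the comparison of exosomes with cells turned on a single sample. The difference of miR-378 was -0.37 ± 1.11 over all samples (limma adjusted p = 0.77), where 78.9% of 114 miRNAs passed and all of those were lower in exosomes. Without exosomes with PBS replicate 1, whose ligation control was low, it was 1.56 ± 0.53 (limma adjusted p = 0.0179). The LPS comparison in that fit gave 2.27 ± 0.47 (limma adjusted p = 0.00096). miR-365 was lower in exosomes, at least 5.33-fold with PBS (limma adjusted p = 0.00011 on deposited signal) and by -3.45 ± 1.09 with LPS (adjusted p = 0.012). With median centring neither passed (limma adjusted p = 0.28 and 0.52). The difference between the LPS effects in exosomes and in cells was 2.65 ± 1.56 for miR-378 (adjusted p = 0.28), where 14.9% of 114 passed.

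Some probes gave similar signal in cells and in exosomes, although the summed signal of exosomes was far lower. miR-200b, an epithelial marker, gave 121 to 230 in LPS cells and 137 to 232 in PBS exosomes, and miR-142-5p, a leukocyte marker, gave 202 to 424 and 166 to 260. miR-142-3p, from the same precursor as miR-142-5p, was at 1.00 to 1.08 in the PBS exosomes. In the exosome sample with the low ligation control, miR-378 was at the floor while miR-200b and miR-142-5p still gave signal. The cause of this difference between probes was not tested.

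The miRNAs whose log2 signal ran most like miR-378 over the 24 tissue and cell samples were miR-30a (r = 0.983), let-7g (0.977), let-7c (0.975), miR-26b (0.967) and miR-126-5p (0.964), among 166 compared. miR-365 followed at 0.952 and miR-193 at 0.741. For miR-193 they were miR-29a (0.945), miR-106b (0.944), miR-350 (0.944), miR-130a (0.936) and miR-362-3p (0.934), with miR-365 at 0.793 and its seed partner miR-193b at 0.314. These are descriptions without a test, since all points share the total signal of their sample and its kind.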

How the data were processed

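Total RNA of 30 samples was hybridised to barcoded probes, per the labels' protocols, with RNA adjusted to 30-40 ng/µl. The authors deposited signal values, which have a floor near 1 in each sample; how they were background-corrected and scaled is not given in the sources used here. Depth is known only as summed signal. Samples were grouped by title. Testing was limited to miRNAs over the detection limit in enough of the samples fitted to fill the smaller group. The linear model of limma 3.58.1 with eBayes, run in R 4.3.3, was applied to log2(signal + 1). Benjamini-Hochberg adjustment covered every miRNA tested, and a call needed an adjusted p under 0.05. The added 1 shrinks differences between low values, while values at the floor can enlarge the difference from a group over the limit. Treatments and MAT against MAT-Ad were fitted on their own 2 groups, and comparisons between sample kinds on the 4 groups concerned. Where 1 group was all below the limit, a fold is a lower bound with its values set to at least 29.8. The p-value beside such a bound is that of the fit on deposited signal. Shares were compared by exact permutation with scipy 1.17.1, and correlations over the 10 fat samples with 100000 permutations. The fits were also checked on simulated data.

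The members, the list and the tests were chosen with earlier results of these data known. The names given follow a rule, namely the members, the probes of their families, list members that passed and the 5 miRNAs most alike; miR-2183 and the marker probes miR-200b, miR-142-5p and miR-142-3p were named after their values were seen. The replicate numbers paired samples by the correlation of their deviations in MAT-Ad (4 pairs, 0.504 to 0.875) and between AA and MAT on HFD (3 pairs, 0.213 to 0.328), and in no other pair of groups was every correlation over 0.1. Alternatives were a pseudocount of 16, no filter, values under the limit set to it, median centring, quantile normalization, top-100 scaling, the replicate block and leaving out each sample. Counting floor values as 0 in shares, a block in a fit of 2 groups, and the list counts under each alternative were added after seeing the data. RefSeq sequences are those of GRCm38.p6.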

Additional observations from a re-analysis of the deposited data

Results flagged for a closer look

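In MAT on HFD the miR-193 signal of replicate 1, 24.85, stood far below the other 4 samples of its group (gap over range 0.723 against a critical value of 0.71 on the log2 scale). This was 1 of 6 sets of values examined, each 1 miRNA in 1 group, and chance alone marks about 1 in 20. The same sample had the lowest miR-378 of the fat samples. The diet effect on the share of miR-378 differed between the tissues, by 1.29 (log2, AA minus MAT), with every HFD sample below the NCD samples in MAT and above them in AA. On shares that difference was not tested.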

How the results depend on the processing

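The shares of miR-378 and miR-193 in MAT and of miR-378 in AA kept their direction under every alternative run, with exact permutation p of 0.00794 to 0.0159 in MAT. As signal in MAT, miR-378 passed only with top-100 scaling (-0.59), while miR-193 passed with median centring (-1.24), quantile normalization (-1.37) and top-100 scaling (-1.34). AA against MAT on HFD reversed for miR-378 with median centring (0.51), quantile normalization (0.60) and top-100 scaling (0.55). The diet effect on miR-378 in AA minus MAT passed with median centring (1.46) and top-100 scaling (1.28), and without single samples ran from 1.02 to 1.52, passing without AA on NCD replicate 1. LPS in exosomes reversed for miR-378 with median centring (-0.45) and quantile normalization (-0.10). Exosomes against cells with PBS reversed with a pseudocount of 16 (0.28), median centring (4.98), quantile normalization (4.44), top-100 scaling (4.92) and values set to the limit (0.91), and without single samples ran from -1.50 to 1.56. Exosomes against cells with LPS passed with a pseudocount of 16 (2.0), median centring (5.11), quantile normalization (5.09), top-100 scaling (5.74) and values set to the limit (2.27), and without single samples ran from 1.97 to 2.52. The change in share of miR-378 with LPS in exosomes ran from -1.84 to 0.628 percentage points without single samples, rising without PBS replicate 2 or LPS replicate 2 (0.0220). miR-378 minus miR-193 in MAT ran from 0.46 to 0.89, passing without HFD replicate 4 or 5 (exact permutation p = 0.0476). On shares, 2 of the 5 miRNAs most like miR-378 and 3 of the 5 most like miR-193 recurred.

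The numbers passing moved more. In MAT 24 became 13 with no filter, 8 with the block and 8 to 48 without single samples, the most without HFD replicate 1 and the fewest without NCD replicate 3 or 4. In exosomes with LPS 8 became 0 with no filter, median centring, quantile normalization or the block, 2 with top-100 scaling and 0 to 23 without single samples. In AA 0 became 1 without NCD replicate 1. The diet effects differed for 3, for 5 with no filter and for up to 7 without AA on NCD replicate 1. In MAT-Ad 2 became 5 with median centring, 4 with quantile normalization and 4 without LPS replicate 1. Exosomes against cells gave 59 for 90 with PBS under top-100 scaling, and 48 and 55 for 83 with LPS under quantile normalization and top-100 scaling. The LPS effects differed for 17, and for 5 to 35 under other settings and 9 to 43 without single samples. List members called in MAT were 2 higher with no filter or quantile normalization, and lower 0 with no filter, 2 with median centring or quantile normalization and 3 with top-100 scaling.

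The replicate block, which pairs MAT-Ad cultures and AA with MAT on HFD, gave 8 calls for 2 in MAT-Ad. In a fit of AA and MAT on HFD alone the blocked difference was -1.50 for miR-378 (limma adjusted p = 0.0115), and miR-193 stayed lower in AA (0.0011). Where the numbers pair nothing, the block brought exosomes against cells with LPS past the threshold (2.48, adjusted p = 0.0446) and left no list member called in MAT. It changed no other call of the members. The cause of these changes was not tested. Low signal limits miR-193 outside MAT, where no change can be read below the limit, and 3 samples against 3 limit AA and exosomes.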
